A study of Mus musculus with 21 samples.

Results

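The immediate early genes Fos, Fosb, Jun, Junb, Jund, Egr1, Nr4a1, Ier2, Dusp1 and Plk2 were followed in haematopoietic stem and progenitor cells of mice with and without Phf6. The 10 genes were chosen by symbol from 54446 gene IDs in the count table, with earlier results of these data known. Each symbol belonged to 1 ID. RNA came from 12-week-old C57BL/6 mice, Phf6 wild type (WT) or Phf6 knockout (KO), and from 3 populations of their bone marrow: long-term haematopoietic stem cells (LT-HSC) and the multipotent progenitors MPP2 and MPP3. There were 2 WT and 3 KO libraries of LT-HSC, 4 WT and 4 KO of MPP2, and 4 WT and 4 KO of MPP3, each made from 100 to 200 sorted cells. The 6 groups shared strain, age and tissue, and the labels name no other agent or allele. How the KO allele was made, and in which cells it acted, is not stated. After lysis of red cells the marrow was stained for lineage antigens, cKit, Sca-1, CD48 and CD150 but not for Flt3, so the progenitor gates could hold cells that such an antibody would separate. Libraries are named by group and replicate number.

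Immediate early genes are switched on within minutes of a stimulus, without new protein synthesis, by kinase cascades that act on factors already bound at their promoters, such as SRF with its ternary complex partners and CREB. Fos and Jun family proteins pair through leucine zippers to form the transcription factor AP-1, and Dusp1 switches off the kinases that started the response. In haematopoietic cells these transcripts are known both from quiescent stem cells and from cells stressed while tissue is dissociated and sorted.

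Promoter sequences from RefSeq (build GRCm38.p6) matched 8 of the 10 genes, all but Egr1 and Ier2. The 250 bases before the RefSeq start are given for Junb, Nr4a1, Dusp1 and Plk2, which were higher in LT-HSC than in both progenitor populations, and for Fos, which ranged the furthest between libraries. They are written 5′ to 3′, and the capitals mark the core of the cAMP response element (CRE), to which CREB and ATF proteins bind, spelled TGACG on either strand (CGTCA on the other). The stretches are chr12:85473640-85473889 on the plus strand (Fos), chr8:84978749-84978998 on the minus strand (Junb), chr15:101266596-101266845 on the plus strand (Nr4a1), chr17:26508473-26508722 on the minus strand (Dusp1) and chr13:110394794-110395043 on the plus strand (Plk2).
Fos: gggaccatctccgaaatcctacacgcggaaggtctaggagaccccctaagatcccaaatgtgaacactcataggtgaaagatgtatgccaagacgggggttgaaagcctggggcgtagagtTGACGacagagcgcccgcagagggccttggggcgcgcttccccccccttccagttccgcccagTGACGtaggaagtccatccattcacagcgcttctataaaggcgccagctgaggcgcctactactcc
Junb: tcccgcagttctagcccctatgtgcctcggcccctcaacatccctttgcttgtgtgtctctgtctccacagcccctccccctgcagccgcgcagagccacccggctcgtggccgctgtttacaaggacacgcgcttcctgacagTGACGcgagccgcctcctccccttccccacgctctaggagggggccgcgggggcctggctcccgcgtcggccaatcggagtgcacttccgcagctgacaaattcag
Nr4a1: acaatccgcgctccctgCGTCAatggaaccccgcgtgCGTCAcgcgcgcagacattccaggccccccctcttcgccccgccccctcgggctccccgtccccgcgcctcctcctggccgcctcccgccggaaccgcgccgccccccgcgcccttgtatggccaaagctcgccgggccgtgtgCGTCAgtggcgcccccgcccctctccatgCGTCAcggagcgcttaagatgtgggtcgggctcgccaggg
Dusp1: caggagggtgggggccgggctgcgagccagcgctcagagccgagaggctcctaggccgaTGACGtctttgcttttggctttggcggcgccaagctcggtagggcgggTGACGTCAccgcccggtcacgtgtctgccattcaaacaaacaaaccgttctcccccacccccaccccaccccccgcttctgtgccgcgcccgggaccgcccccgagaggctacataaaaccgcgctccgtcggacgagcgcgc
Plk2: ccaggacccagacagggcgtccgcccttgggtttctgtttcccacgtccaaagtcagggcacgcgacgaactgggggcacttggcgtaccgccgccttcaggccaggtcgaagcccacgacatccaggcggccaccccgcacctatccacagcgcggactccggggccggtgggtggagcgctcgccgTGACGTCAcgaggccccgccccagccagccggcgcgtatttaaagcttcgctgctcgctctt
The core stood in 6 of the 8 promoters (Fos, Fosb, Junb, Nr4a1, Dusp1 and Plk2) and in 17.8% of all 32851 RefSeq stretches of 250 bases. The full CRE TGACGTCA, which holds the core on both strands, stood in 2 of the 8, starting 143 bases before the start of Dusp1 and 62 bases before that of Plk2, and in 1.55% of all stretches. The EGR site GCGNGGGCG was found in Fosb and Nr4a1 (4.7% of all stretches), and the TATA box TATAAA in Fos (12.4%), both searched on both strands. Neither the AP-1 site TGANTCA (6.75% of all stretches) nor the CArG box of SRF (1.47%), searched on both strands, was present in these 8 stretches. A match is a run of letters and not a measured binding site, and factors can bind outside these windows.

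Total counts ran from 18892723 to 31611366 per library, and 21100 genes passed the filter on low counts, among them all 10 members. Each member also exceeded the filter's level of 0.382 CPM, counts scaled to the size of the library, in at least 2 MPP2 and 6 MPP3 libraries, so none was tested through LT-HSC alone. Phf6 had 43 to 395 counts in KO libraries and 1545 to 5204 in WT libraries. Among 10 sort and population markers, Cd48 averaged 10.4, 373.8 and 502.3 CPM in the stem cells, MPP2 and MPP3, and Slamf1, which encodes CD150, averaged 58.8, 48.6 and 0.636. Some libraries stood apart. The sum of the 10 markers was 2003 to 3054 CPM in the MPP2 libraries numbered 1 and 2 and 620.3 to 958.2 CPM in those numbered 3 and 4. In the same 2 sets Ly6a, which encodes Sca-1, measured 158.4 to 1429 and 5.74 to 31.3 CPM, and Slamf1 9.18 to 37.0 and 59.6 to 80.1 CPM. Immunoglobulin genes took 45.8% of the counts of KO MPP2 1 and 25.8% of KO MPP3 1, ribosomal RNA took 21.2% of KO MPP3 2, and the summed CPM of 10 neutrophil markers reached 4496 in WT LT-HSC 2, 15059 in KO MPP2 1 and 1837 in WT MPP3 1. The libraries numbered 2 carried 2071 to 5051 counts of the Y-linked Ddx3y, the others at most 3. In bulk RNA a change in the share of expressing cells and a change in RNA per cell cannot be told apart. The p-values measure the spread between these libraries, and since the design has 4 pairs of mice, a mouse gave more than 1 library.

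Levels are in CPM scaled with TMM factors. Per kilobase of exon, the average level over the 6 groups was highest for Ier2 (73.2 CPM per kb) and Junb (46.2), followed by Jun (27.8), Fos (23.5) and Dusp1 (19.0), then Jund (8.18), Egr1 (6.12), Plk2 (1.62), Nr4a1 (1.42) and Fosb (0.594). The SD over 21 libraries was 23.8 CPM per kb for Jun, 36.2 for Fos and 19.9 for Dusp1. This SD also holds the differences between groups, and the genes were not compared within libraries. The order of these 3 neighbours is therefore a description only. WT or KO LT-HSC held the highest group mean for each of the 10 genes, and both LT-HSC groups ranked above the 4 progenitor groups for all but Jund, where KO MPP3 (14.1 CPM) came between KO LT-HSC (27.2) and WT LT-HSC (12.3).

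**Figure D1:**
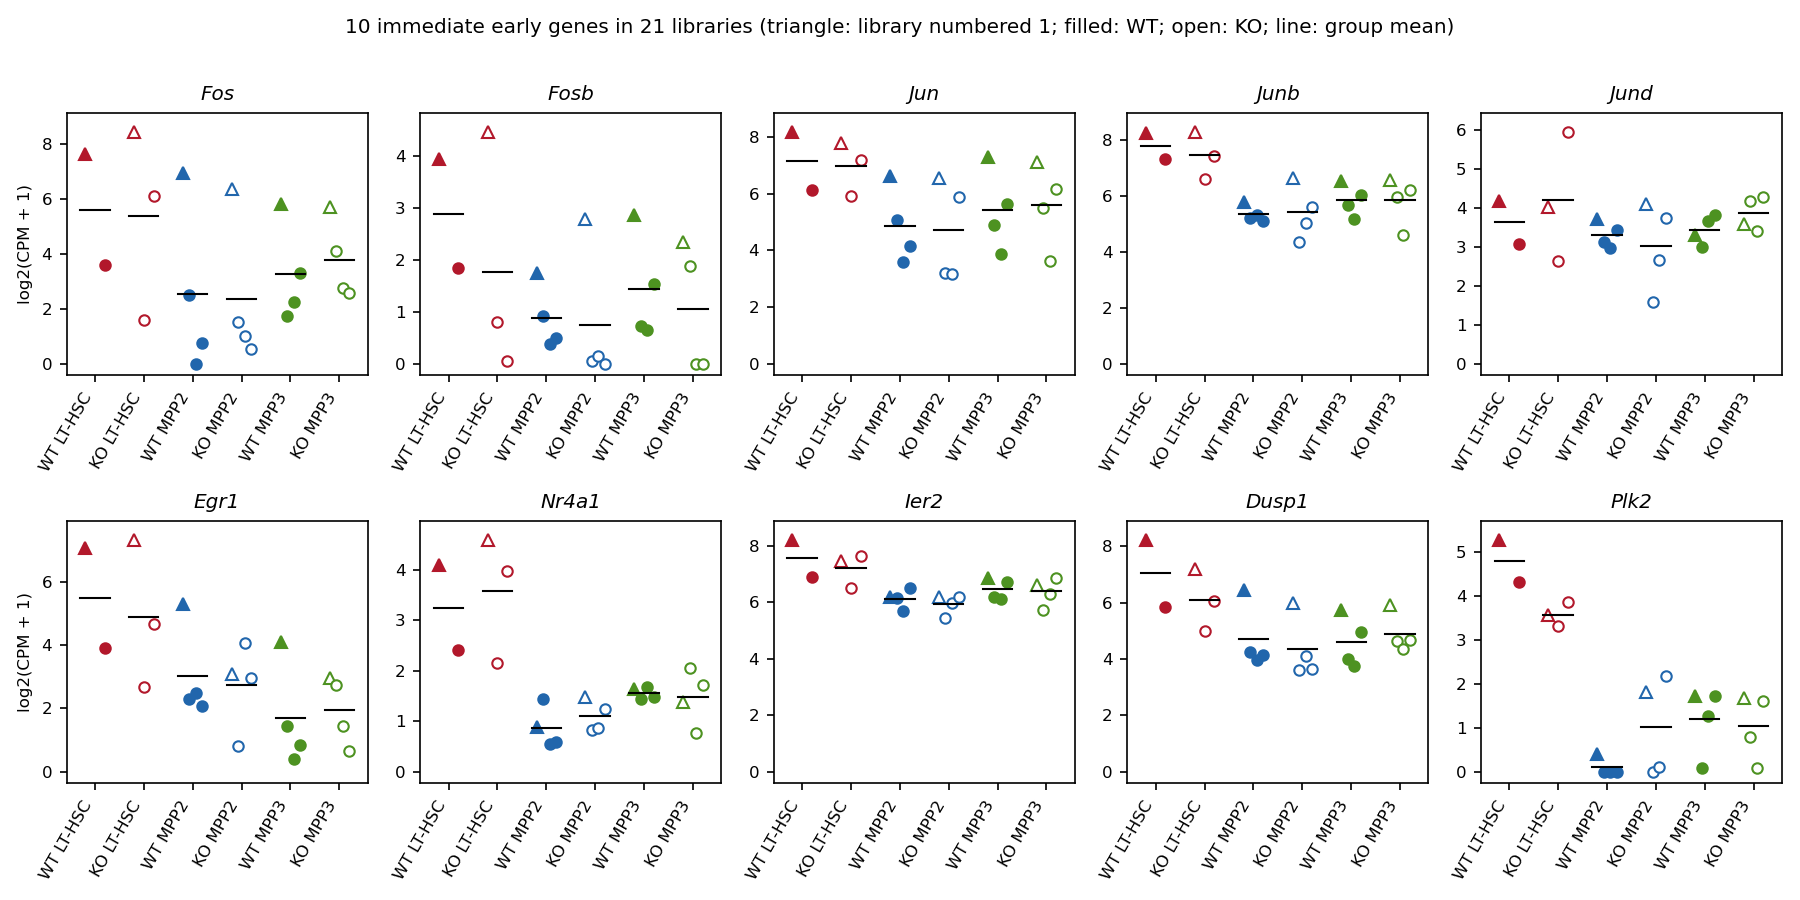
Level (y axis) of each of the 10 genes as log2(CPM + 1) in each of 21 libraries, by genotype and population; triangles are libraries numbered 1, filled symbols WT, open symbols KO, and lines the means of the plotted values. Plk2 and Nr4a1 sit higher in every LT-HSC library than in any progenitor library, while Fos, Fosb and Dusp1 are highest in the triangle of each group.

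Fos encodes the AP-1 subunit that pairs with Jun proteins. The gene (ENSMUSG00000021250.13) lies at chr12:85473890-85477273 on the plus strand of mm10, as annotated in GENCODE M21. In LT-HSC it measured 195 and 11.1 CPM in WT libraries 1 and 2, and 347, 2.02 and 67.3 CPM in KO libraries 1, 2 and 3. In MPP2 it ran from 0 to 122.8 CPM with a median of 1.47, and in MPP3 from 2.38 to 54.9 CPM with a median of 7.28. The populations overlapped, although 2 LT-HSC libraries lay above all MPP2 libraries and all 5 above the MPP2 median. The log2 difference of LT-HSC from MPP2 was 2.21 (SE 1.54) and that from MPP3 was 2.70 (SE 1.56), and neither passed (edgeR, adjusted p = 0.432 and 0.388).

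Fosb, a close relative of Fos, was the least abundant member. The gene (ENSMUSG00000003545.3) lies at chr7:19302696-19310051 on the minus strand. It measured 14.3 and 2.58 CPM in WT LT-HSC 1 and 2, and 21.1, 0.754 and 0.0333 CPM in KO LT-HSC 1 to 3, the last from a single read. The highest progenitor value was 6.28 CPM, in WT MPP3 1. As for Fos, only 2 LT-HSC libraries lay above all MPP2 libraries, and the differences from MPP2 (2.69, SE 1.41) and MPP3 (1.98, SE 1.39) did not pass (edgeR, adjusted p = 0.265 and 0.505).

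Jun, the main partner of Fos, measured 291.8 and 68.6 CPM in the WT LT-HSC libraries and 220.6, 59.1 and 145.1 CPM in the KO ones. The gene (ENSMUSG00000052684.4) lies at chr4:95049034-95052222 on the minus strand. MPP2 libraries ran from 8.02 to 98.2 CPM (median 24.8) and MPP3 libraries from 11.4 to 157.5 CPM (median 46.7). All 5 LT-HSC libraries were above the median of either progenitor population, yet the ranges overlapped. The log2 difference from MPP2 was 1.97 (SE 0.752) and that from MPP3 was 1.32 (SE 0.750), which did not pass (edgeR, adjusted p = 0.123 and 0.374). With the replicate number as a block, Jun passed against MPP2 (2.20, SE 0.423, adjusted p = 0.00456) and against MPP3 (1.55, SE 0.422, adjusted p = 0.0322) in edgeR. The call against MPP3 was lost (edgeR adjusted p = 0.0574) when KO LT-HSC 3, whose pair is uncertain, was taken as number 4, and with a block for each genotype and number (edgeR adjusted p = 0.0983), while that against MPP2 stood in both. The antisense gene Junos covers 232 of the 3189 exon bases of Jun and averaged 0.826, 0.884 and 0.709 CPM.

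Junb, an AP-1 subunit that can oppose Jun and restrains the expansion of stem cells, rose in LT-HSC against both progenitor populations. The gene (ENSMUSG00000052837.6) lies at chr8:84974484-84978718 on the minus strand. It measured 304.2 and 158.0 CPM in WT LT-HSC and 313.1, 97.1 and 170.1 CPM in KO LT-HSC, a mean of 208.5 ± 95.6 CPM (SD, n = 5). MPP2 averaged 44.7 ± 23.8 CPM (SD, n = 8), from 19.6 to 97.9, and MPP3 averaged 61.9 ± 25.2 CPM (SD, n = 8), from 23.4 to 94.5. Every LT-HSC library exceeded every MPP3 library, and 4 of 5 exceeded the highest MPP2 library, KO MPP2 1. The log2 difference was 2.25 (SE 0.376, edgeR adjusted p = 0.00127) from MPP2 and 1.77 (SE 0.374, edgeR adjusted p = 0.0058) from MPP3. Of its 2301 exon bases, 173 lie under Prdx2 on the other strand, which averaged 431.5, 528.4 and 453.6 CPM in LT-HSC, MPP2 and MPP3. The kit does not mark strand and the counting setting is not given in the sources used here, so reads from these bases cannot be told apart.

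Jund, the AP-1 subunit usually kept at a steady level, had the smallest fitted differences of the 10 members between LT-HSC and the progenitors. The gene (ENSMUSG00000071076.6) lies at chr8:70698949-70700616 on the plus strand. It measured 17.3 and 7.38 CPM in WT LT-HSC and 15.1, 5.25 and 61.2 CPM in KO LT-HSC, where library 3 stood above the rest. MPP2 libraries lay between 1.98 and 16.1 CPM and MPP3 libraries between 6.93 and 18.5 CPM. Of its 1668 exon bases 877 also belong to Gm11175 on the other strand, which had 0 counts. As for Junb, the counting setting is not given, so reads from these bases could have been left out of both genes. The level of Jund per kilobase and its place in the order are therefore uncertain. The differences of LT-HSC from MPP2 (1.02, SE 0.482) and from MPP3 (0.61, SE 0.484) did not pass (edgeR, adjusted p = 0.212 and 0.574).

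Egr1 encodes a zinc finger transcription factor that is known to hold stem cells in the marrow and out of cycle. The gene (ENSMUSG00000038418.7) lies at chr18:34859823-34864984 on the plus strand. In LT-HSC it measured 132.2 and 14.0 CPM in WT libraries and 159.2, 5.38 and 24.3 CPM in KO libraries. MPP3 libraries ran from 0.317 to 16.3 CPM with a median of 1.72, and MPP2 libraries from 0.769 to 37.9 CPM with a median of 5.67. Egr1 rose in LT-HSC against MPP3 by a log2 difference of 4.02 (SE 1.05, edgeR adjusted p = 0.0267), with 3 of 5 LT-HSC libraries above the highest MPP3 library. Against MPP2 the difference of 2.80 (SE 1.01) did not pass in edgeR (adjusted p = 0.101).

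Nr4a1 encodes an orphan nuclear receptor associated with stem cell quiescence. The gene (ENSMUSG00000023034.7) lies at chr15:101254269-101274795 on the plus strand. It measured 15.95 and 4.28 CPM in WT LT-HSC and 23.2, 3.43 and 14.6 CPM in KO LT-HSC. No MPP2 library exceeded 1.81 CPM and no MPP3 library 3.13 CPM, so LT-HSC stood clear of both. It rose by a log2 difference of 3.53 (SE 0.502) against MPP2 and 2.602 (SE 0.489) against MPP3 (edgeR, adjusted p = 0.000332 and 0.00229). Nr4a1 was also called in KO mice alone, at 3.54 (SE 0.691) against MPP2 and 2.84 (SE 0.672) against MPP3 (edgeR, adjusted p = 0.0116 and 0.0256), and in WT mice alone against MPP2, at 3.52 (SE 0.729, edgeR adjusted p = 0.0342). With the replicate block the WT call was lost (3.19, SE 0.768, edgeR adjusted p = 0.0636). With a block for each genotype and number it was lost too (edgeR adjusted p = 0.197), as was the KO call against MPP3 (edgeR adjusted p = 0.0991).

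Ier2 encodes a short-lived nuclear protein of the immediate early response and had the steadiest progenitor levels of the abundant members. The gene (ENSMUSG00000053560.4) lies at chr8:84661331-84662852 on the minus strand. LT-HSC libraries measured 296.6 and 117.5 CPM in WT and 175.5, 90.3 and 195.9 CPM in KO. MPP2 averaged 66.2 ± 14.6 CPM (SD, n = 8) and MPP3 averaged 87.7 ± 23.3 CPM (SD, n = 8). All 5 LT-HSC libraries lay above all MPP2 libraries, and 4 of 5 lay above the highest MPP3 library at 115.0 CPM. The log2 difference was 1.44 (SE 0.248) from MPP2 and 1.03 (SE 0.248) from MPP3 (edgeR, adjusted p = 0.00159 and 0.0156), the smallest among the members called.

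Dusp1 encodes a nuclear phosphatase that inactivates MAP kinases, in particular p38 and JNK, and so ends the response. The gene (ENSMUSG00000024190.6) lies at chr17:26505590-26562128 on the minus strand. It measured 300.1 and 56.4 CPM in WT LT-HSC and 146.1, 31.0 and 66.3 CPM in KO LT-HSC. MPP2 libraries ran from 11.3 to 87.1 CPM (median 16.6) and MPP3 libraries from 12.5 to 59.2 CPM (median 24.1). The ranges overlapped, since both MPP2 libraries numbered 1 exceeded the lowest LT-HSC libraries. The log2 difference was 2.03 (SE 0.580) from either population (edgeR, adjusted p = 0.038 against MPP2 and 0.0426 against MPP3).

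Plk2 encodes a polo-like kinase that is induced early by stimuli and by p53. The gene (ENSMUSG00000021701.8) lies at chr13:110395046-110400844 on the plus strand. It measured 37.6 and 18.9 CPM in WT LT-HSC and 10.7, 8.85 and 13.5 CPM in KO LT-HSC. MPP2 libraries ran from 0 to 3.53 CPM (median 0.0355) and MPP3 libraries from 0.0694 to 2.32 CPM (median 1.74). Neither progenitor population reached the lowest LT-HSC library. The log2 difference was 5.62 (SE 1.12) from MPP2 and 3.67 (SE 1.02) from MPP3 (edgeR, adjusted p = 0.00414 and 0.0357), the largest among the members called against MPP2.

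**Figure D2:**
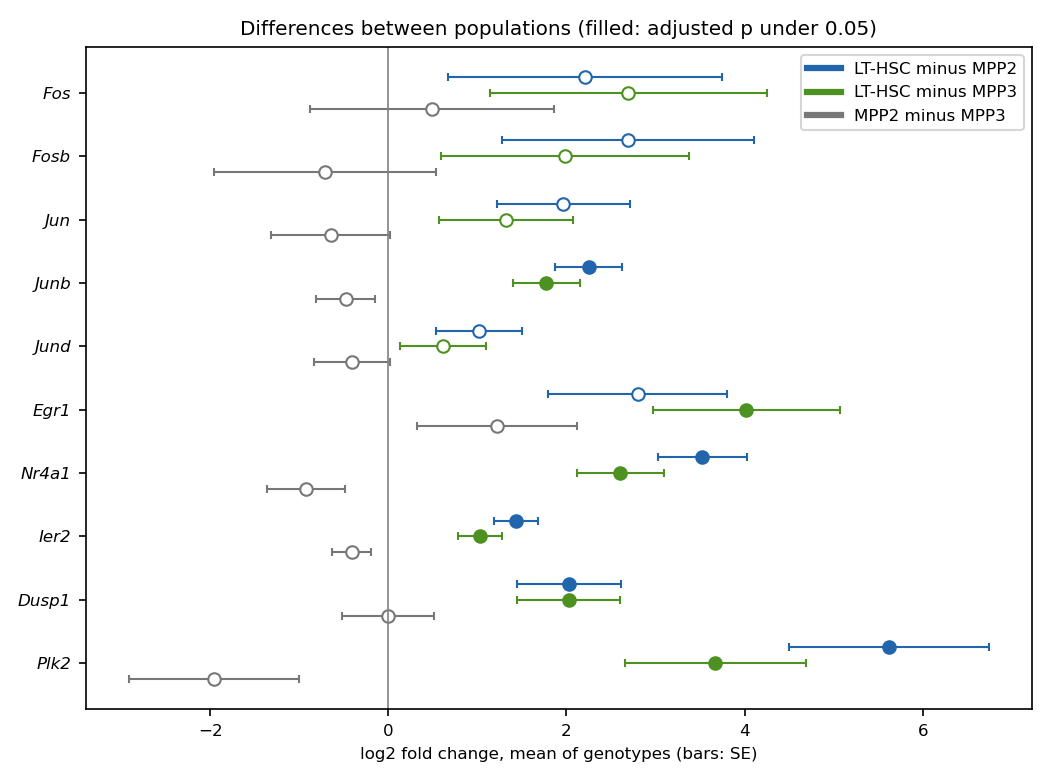
Log2 fold changes between populations, averaged over genotypes, for the 10 genes (x axis; bars are SE from edgeR); filled points have an adjusted p under 0.05. All LT-HSC differences lie to the right of 0, with Plk2 the furthest at 5.62 against MPP2, and no MPP2 minus MPP3 point is filled.

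In all, 5 of 10 members rose and 0 fell in LT-HSC against MPP2 by edgeR, where 4.14% of the 21100 genes tested rose and 3.68% fell. Against MPP3, 6 of 10 rose and 0 fell, where 3.82% of genes rose and 2.59% fell. The median log2 difference of the 10 members was 2.23 against MPP2 and 2.005 against MPP3, and that of all genes tested was -0.03 and -0.05. The 2 comparisons share the LT-HSC libraries, and the members were chosen with earlier results of these data known. The libraries of LT-HSC lay above all those of MPP2 for 3 members (Nr4a1, Ier2 and Plk2) and above all those of MPP3 for 3 (Junb, Nr4a1 and Plk2), as for 2.83% and 3.34% of all genes. Between MPP2 and MPP3, 0 of 10 passed in edgeR or DESeq2 (6.87% of genes did in edgeR and 13.3% in DESeq2). The count at an unadjusted p under 0.05 was 1 in edgeR (Nr4a1; 22.2% of genes) and 2 in DESeq2 (26.4%), shares no higher than those of all genes.

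Within one genotype the groups were smaller. In WT mice 3 members rose in LT-HSC against MPP2 (Junb, Nr4a1 and Plk2; 0.265% of genes rose) and 0 of 10 passed against MPP3 (0.72% rose; 6 with an unadjusted edgeR p under 0.05, as had 9.2% of genes, and 3 called by DESeq2, which called 1.95% higher). In KO mice 2 rose against MPP2 (Nr4a1 and Ier2; 1.05% rose) and 1 against MPP3 (Nr4a1; 1.56% rose). Between MPP2 and MPP3, 0 of 10 passed in WT (1.2% of genes did) and 0 in KO (0.886%), with 1 and 0 members at an unadjusted edgeR p under 0.05 (13.5% and 14.5% of genes). DESeq2 called 1 in WT (Plk2, lower in MPP2) and 0 in KO, where it called 5.09% and 5% of genes. With the replicate block, 4 rose in WT against MPP2 (0.355% of genes rose): Ier2 and Dusp1 were added and Nr4a1 was lost. Against MPP3, 3 rose in WT with the block (Junb, Ier2 and Dusp1; 1.03% rose). In KO the block gave 5 against MPP2, with Jun, Junb and Dusp1 added (1.7% rose), and 4 against MPP3, with Junb, Ier2 and Dusp1 added (2.19% rose). Dusp1 against MPP3 in KO was lost when KO LT-HSC 3 was taken as number 4, and with a block for each genotype and number. In the means of the genotypes the replicate block gave 6 and 7 (3.85% and 4.31%). It added Jun to both, though against MPP3 not with the other pairings given above. With a block for each genotype and number, Plk2 was lost in WT against MPP2 (edgeR adjusted p = 0.0565). The difference of the KO effect between populations was itself tested for each pair of populations, with 0 of 10 members and 0% of 21100 genes called by edgeR. At an unadjusted edgeR p under 0.05 there was 1 member (Plk2) for LT-HSC against MPP2, 0 for LT-HSC against MPP3 and 1 (Plk2) for MPP2 against MPP3, beside 3.6%, 2.47% and 4.47% of genes. DESeq2 called 0 members in each, of 0.116%, 0.139% and 0.0726% of genes.

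Several of these counts changed when single libraries were left out. The shares of all genes called in these fits are not given here, so the changes cannot be read as particular to the members. Without WT LT-HSC 1, 0 members were called against MPP3, 3 without KO LT-HSC 1, WT MPP3 2, WT MPP3 4, KO MPP3 3 or KO MPP3 4, and 4 to 6 without any of the other libraries. Against MPP2 the count was 4 to 6 whichever library was left out. In WT against MPP2 it was 0 without WT LT-HSC 1, WT LT-HSC 2, WT MPP2 3 or WT MPP2 4, and 1 without WT MPP2 1, WT MPP2 2, WT MPP3 1 or KO MPP3 1. In KO it was 0 against MPP2 without KO LT-HSC 1, and 0 against MPP3 without KO LT-HSC 1, KO LT-HSC 3, KO MPP3 1, KO MPP3 3 or KO MPP3 4. Against MPP2 in KO it was 1 without any of 13 other libraries.

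The sample titles carry running numbers, 52 to 64 for the libraries numbered 1 and 2 and 162 to 212 for the rest, and the labels do not say what these mark. Within 52 to 64, with 4 libraries per population, 1 member was called in LT-HSC against MPP2 (Nr4a1, 3.17, SE 0.715, edgeR adjusted p = 0.0361; 1.88% of genes rose) and 0 of 10 against MPP3 (2.62% rose), while the fitted difference was positive for 10 of 10 in each. Within 162 to 212 there is 1 LT-HSC library. There MPP2 and MPP3 could be compared with 4 libraries each, the MPP2 ones being those with the low sum of sort and population markers, and 2 members were called: Fos was lower and Egr1 higher in MPP2, in a fit in which 3.98% of genes were higher and 5.63% lower. Fos measured 0 and 0.671 CPM in WT and 1.03 and 0.464 CPM in KO MPP2, against 3.73 and 8.86 CPM in WT and 5.69 and 5.01 CPM in KO MPP3, a log2 difference of -3.59 (SE 0.809, edgeR adjusted p = 0.0334). Egr1 went the other way, with 4.63 and 3.19 CPM in WT and 15.7 and 6.70 CPM in KO MPP2 against 0.317 and 0.796 CPM in WT and 1.70 and 0.569 CPM in KO MPP3, a log2 difference of 3.02 (SE 0.549, edgeR adjusted p = 0.0159). Over all libraries, by contrast, the differences were 0.49 (SE 1.37) for Fos and 1.22 (SE 0.901) for Egr1 and did not pass (edgeR, adjusted p = 0.892 and 0.468).

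Loss of Phf6 was the other comparison of the design. KO minus WT, 0 of 10 members were called by edgeR in LT-HSC, MPP2 or MPP3, where 0.00474%, 0.0142% and 0.00948% of all genes were called. At an unadjusted edgeR p under 0.05 there were 0, 1 and 0 members (2.43%, 6.72% and 5.62% of genes), and DESeq2 called 0 in each population, of 0.136%, 0.169% and 0.195% of genes. With the replicate block it was 0 in each as well, where 0%, 0.0521% and 0.0237% of genes were called. Over the 10 members the median log2 difference was -0.24, 0.03 and 0.02 in LT-HSC, MPP2 and MPP3, beside 0.00, 0.01 and 0.00 over all genes tested. The SE of Fos was 2.51, 1.94 and 1.93 in the 3 populations, so a change of several fold in Fos would not have been detectable, whereas the SE of Ier2 was 0.398, 0.311 and 0.311.

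Plk2 in MPP2 was the member with an unadjusted p under 0.05. Its KO MPP2 libraries measured 2.52, 0, 0.0710 and 3.53 CPM and its WT MPP2 libraries 0.322, 0, 0 and 0 CPM. Thus KO libraries 1 and 4 were above the rest, KO libraries 2 and 3 lay among the WT values, and 3 WT libraries had no read, which allows up to 0.0985 to 0.126 CPM in them (the value of 3 counts; this covers counting error only). The fitted log2 difference of 4.19 (SE 1.51) did not pass (edgeR, adjusted p = 0.738), and that of DESeq2 was 4.25 (adjusted p = 0.226). In LT-HSC, Plk2 measured 37.6 and 18.9 CPM in WT and 10.7, 8.85 and 13.5 CPM in KO libraries. The log2 difference of -1.36 (SE 1.55) did not pass in edgeR. Jund in LT-HSC had a log2 difference of 1.14 (SE 0.806) and Dusp1 one of -1.13 (SE 0.922), neither of which passed (edgeR, adjusted p = 1 for each).

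**Figure D3:**
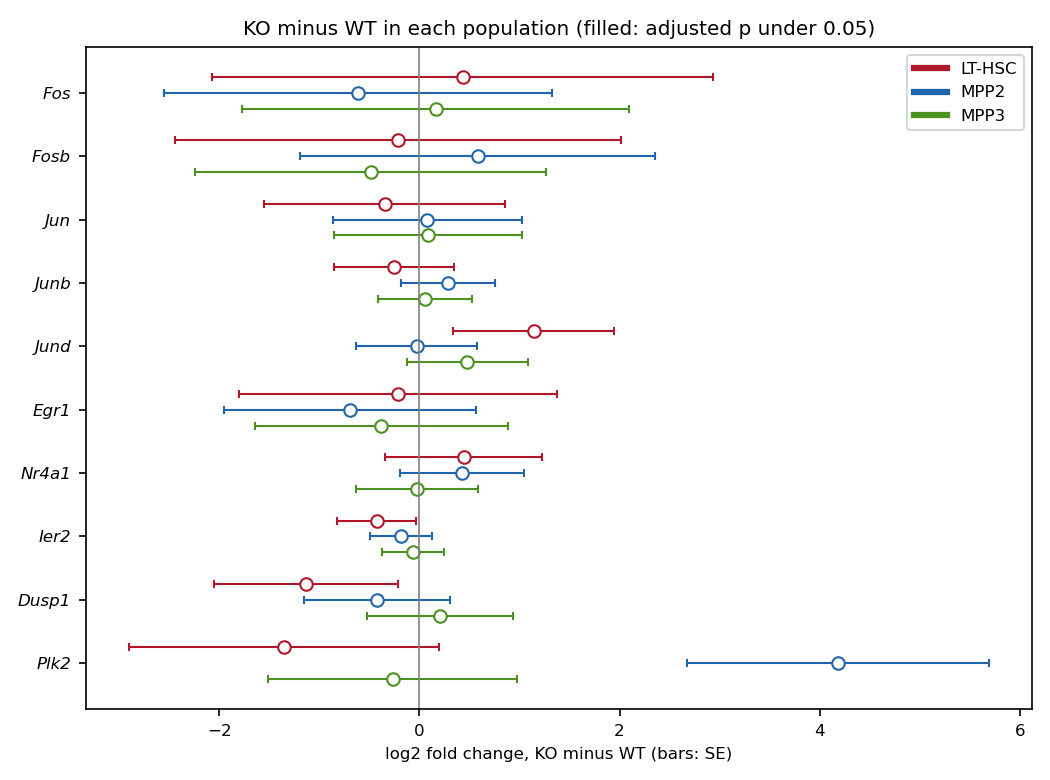
Log2 fold changes of KO minus WT for the 10 genes in each population (x axis; bars are SE from edgeR); no point is filled, as none had an adjusted p under 0.05. The point furthest from 0 is Plk2 in MPP2 at 4.19, and the longest bars belong to Fos in LT-HSC.

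Within groups, the libraries numbered 1 were high for a set of these genes. This was noticed in the values and is given as a description. Fos, Fosb, Jun, Junb and Dusp1 were highest in library 1 of their group in all 6 groups, 5 of 10 members, beside 1.56% of all genes tested. Egr1 was highest there in 5 groups, and Jund, Nr4a1, Ier2 and Plk2 in 3. For Fos the libraries numbered 1 measured 195 CPM in WT LT-HSC, 347 in KO LT-HSC, 122.8 in WT MPP2, 80.9 in KO MPP2, 54.9 in WT MPP3 and 51.2 in KO MPP3. The highest of the other libraries in the same groups had 11.1, 67.3, 4.61, 1.90, 8.86 and 16.3 CPM. The ratio of the former to the latter ran from 3.13 to 42.6 for Fos, and only from 1.29 to 2.04 for Junb.

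Since the numbers hold LT-HSC libraries in unlike shares, averages were taken over the MPP2 and MPP3 libraries alone. For Dusp1 those numbered 1 averaged 65.4 CPM, and those numbered 2, 3 and 4 averaged 16.9, 15.8 and 20.7 CPM. Ier2, though an immediate early gene as well, averaged 88.9 CPM in those numbered 1 and 59.0, 64.8 and 95.0 CPM in the others, and its MPP libraries numbered 1 were 0.804 to 1.10 times the highest other library of their group. The summed CPM of the 10 members was 441.3 to 1605 in the 6 libraries numbered 1 and 86.8 to 758.5 in the other 15. The sum of 15 other immediate early transcription factors was 317.2 to 540.9 (median 462.2) and 242.2 to 962.5 CPM (median 560.4). For 28 other immediate early signalling and RNA regulators it was 682.1 to 1210 (median 1003) and 390.9 to 895.2 CPM (median 526.6).

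**Figure D4:**
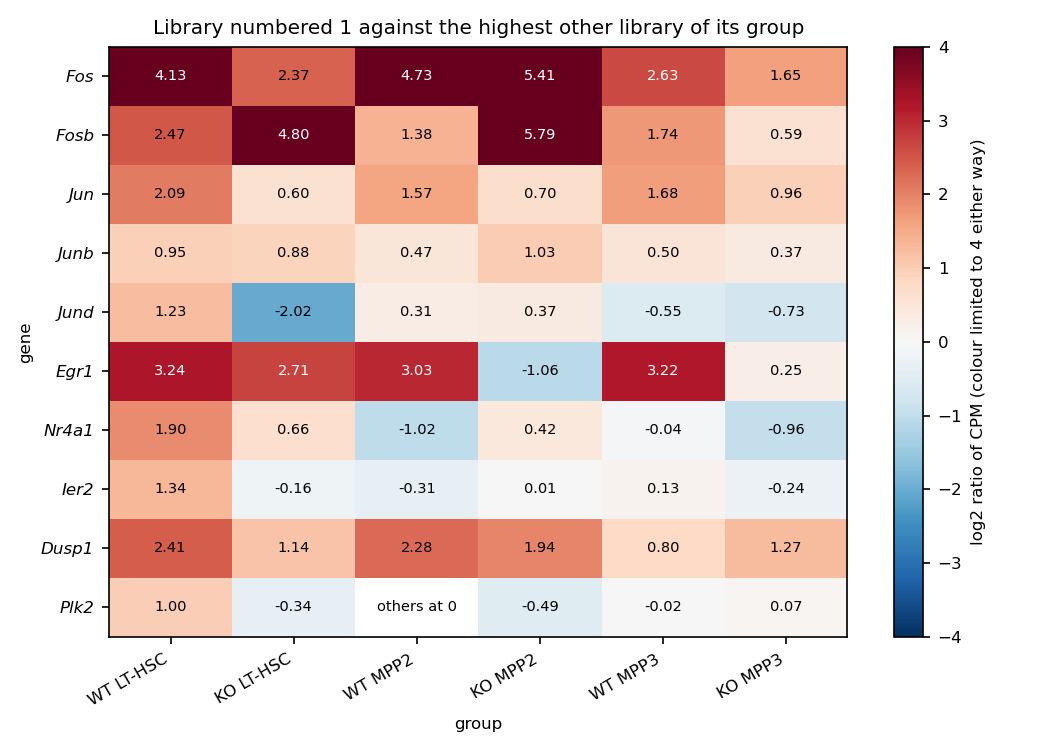
Log2 ratio of the CPM in the library numbered 1 to the CPM in the highest other library of the same group, by gene (rows) and group (columns); red is above 0 and blue below. The rows of Fos, Fosb, Jun, Junb and Dusp1 are red in all 6 groups, while Jund, Nr4a1, Ier2 and Plk2 hold both colours.

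Other lists were read in the same libraries. Of the 10 sort and population markers, Ly6a was highest in library 1 of all 6 groups, Cd48 in 5 and the rest in 1 to 4. Ly6a measured 257.3 to 1429 CPM in the libraries numbered 1 and 5.74 to 246.7 CPM in the others. The sum of 10 heat shock genes, which respond to tissue handling, was 4012 to 5232 CPM in the libraries numbered 1 and 3738 to 6156 CPM in the others, but its members differed. The inducible chaperone genes Hspa1a and Hspa1b and the co-chaperone gene Dnaja1 were highest in library 1 of all 6 groups, like Fos, and Dnajb1 in 5. Hspa1b measured 239.7 to 807.8 CPM in the libraries numbered 1 and 4.75 to 175.9 CPM in the others, with no overlap, and Dnaja1 262.4 to 359.5 and 124.3 to 253.6 CPM. Hspa1a measured 53.4 to 163.3 CPM in the libraries numbered 1 and 0.0657 to 54.2 CPM in the others. The abundant Hsp90ab1 and Hspa8, which make up much of the sum, were highest in library 1 of 1 group each. The same held for Hspe1, Hspd1 and Hsph1, and Hsp90aa1 was highest there in 2 groups. Hsph1 measured 29.5 to 75.3 CPM in the libraries numbered 1 and 29.9 to 108.9 CPM in the others. The part of handling in the levels of the members was not tested. The sum of 10 B and plasma cell markers was 10116 CPM in WT MPP2 1, 44858 in KO MPP2 1 and 13114 in KO MPP3 1, but 64.2, 40.4 and 85.5 CPM in WT LT-HSC 1, KO LT-HSC 1 and WT MPP3 1. Of the libraries not numbered 1, the highest sum was 2875 CPM, in WT MPP2 2. The sum of 10 neutrophil markers was 14.2 to 15059 CPM in the libraries numbered 1 and 6.84 to 4496 CPM in the others, with 0 of the 10 at 0 in either set.

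The libraries numbered 1 made up 2 of 5 LT-HSC and 2 of 8 libraries of each progenitor population, which bears on the comparison of the populations. Without them, 2 members were called in LT-HSC against MPP2, Junb (2.12, SE 0.346) and Dusp1 (1.87, SE 0.306), both at an edgeR adjusted p of 0.013, where 0.945% of 22656 genes rose. The same 2 were called against MPP3, Junb at 1.53 (SE 0.348, edgeR adjusted p = 0.044) and Dusp1 at 1.36 (SE 0.308, edgeR adjusted p = 0.043), where 1.25% of genes rose. Nr4a1 then had 2.76 against MPP2 (edgeR adjusted p = 0.0643) and 1.69 against MPP3 (0.306), Ier2 had 1.06 (0.114) and 0.69 (0.392), and Plk2 had 3.74 against MPP3 (0.279), close to its value over all libraries. Against MPP2 the adjusted p of Plk2 was 0.0631, with 18.9, 8.85 and 13.5 CPM in the remaining LT-HSC libraries and 0 to 3.53 CPM in those of MPP2, of which the WT ones were all at 0. All 10 fitted differences were positive in both comparisons. Without KO MPP2 1, KO MPP3 1 and KO MPP3 2, rich in immunoglobulin or ribosomal RNA counts, 6 members were called in each comparison (7.6% and 4.89% of genes rose), and without the 3 libraries rich in neutrophil transcripts 5 in each (1.74% and 1.89%).

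Taking libraries of the same genotype and number as neighbours, the LT-HSC library was higher than the MPP2 library in 5 of 5 pairs for Fos, Jun, Junb, Egr1, Nr4a1, Ier2, Dusp1 and Plk2, in 4 of 5 for Fosb and in 3 of 5 for Jund. Against MPP3 it was higher in 5 of 5 for Jun, Junb, Nr4a1, Ier2, Dusp1 and Plk2, and in 4 of 5 for Fos, Fosb, Jund and Egr1. The title of KO LT-HSC 3 runs on from those of KO MPP2 4 and KO MPP3 4, so its pair is uncertain. Over the other 4 pairs the counts were 4 of 4 against MPP2 for all members but Jund (2 of 4). Against MPP3 they were 4 of 4 for all but Fos, Fosb, Jund and Egr1 (3 of 4 each). The share of all genes with such counts is not given here, so the counts cannot be read as particular to the members.

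The members also moved together within groups. With the group means subtracted from log2(CPM + 1), the median Pearson's r over the 45 pairs of members was 0.62 across the 21 libraries, and 45 of 45 were above 0. The highest value was that of Fos with Dusp1 (0.95), followed by Jun with Junb (0.90) and Fosb with Dusp1 (0.82). The lowest was that of Fosb with Jund (0.14). Dusp1 had the highest median r with the other 9 members (0.79) and Plk2 the lowest (0.51). Without the libraries numbered 1 the median was 0.44 and 43 of 45 were above 0, and the median of Fos with the others went from 0.74 to 0.36 while that of Jund went from 0.53 to 0.63. These correlations describe the libraries, which came from 4 pairs of mice.

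**Figure D5:**
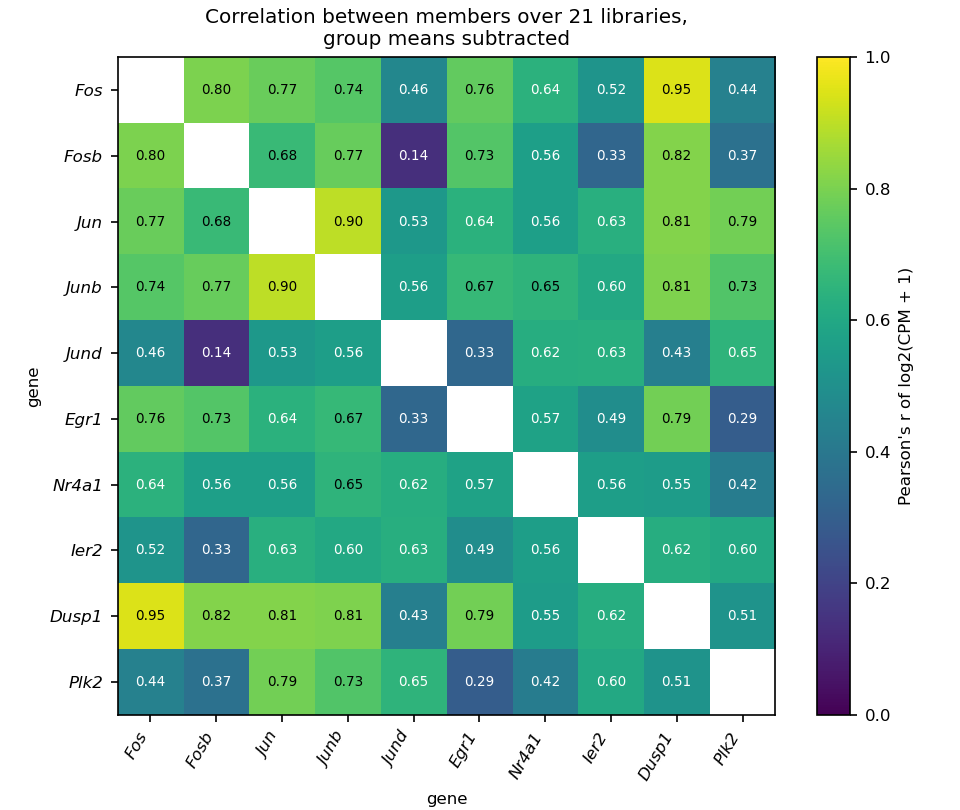
Pearson's r between each pair of the 10 genes over 21 libraries, computed on log2(CPM + 1) after the mean of each group was subtracted; the diagonal is blank. The brightest cell is Fos with Dusp1 at 0.95 and the darkest Fosb with Jund at 0.14.

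The mean standardised level of the 10 members was compared with the 9505 genes of at least 10 CPM that are not members. Over all 21 libraries the most alike were Zfp36 (r = 0.89), which encodes the mRNA decay factor tristetraprolin, and Ier3 (0.87), an early response gene, followed by Plekha8 (0.87), Cish (0.84), Gm23849 (0.84), Triqk (0.83), Crot (0.83), Abcg3 (0.83), Ece1 (0.82) and Mycn (0.82). Cish encodes a feedback inhibitor of cytokine signalling. With group means subtracted, Zfp36 was again the most alike (0.92), then Slc25a46 (0.87), Jpx (0.87), Rhob (0.86), Gm23849 (0.86), Ier3 (0.85), Ero1lb (0.83), Plekha8 (0.82), Hspa1a (0.82) and Wac (0.81). Zfp36, Ier3, Gm23849 and Plekha8 stood in both lists of 10.

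Other immediate early genes were read from lists that do not hold the members. Over all 21100 genes tested, 4.14% rose and 3.68% fell in LT-HSC against MPP2 by edgeR. Against MPP3 3.82% rose and 2.59% fell, and 6.87% differed between MPP2 and MPP3. Of 15 further transcription factors 13 were tested, and Klf6 rose in LT-HSC against MPP2 (1.22, SE 0.353, edgeR adjusted p = 0.039), with 0 lower. Against MPP3, Klf6 (1.49, SE 0.353) and Maff (1.47, SE 0.334) rose and Cebpd fell (-2.02, SE 0.595), in edgeR at adjusted p = 0.0136, 0.0103 and 0.0475. Klf6, a zinc finger factor, averaged 81.7, 35.5 and 30.1 CPM in LT-HSC, MPP2 and MPP3. The median log2 difference of the 13 was 0.79 and 1.31, beside -0.03 and -0.05 for all genes. With the replicate block it was 0.85 and -0.08, with 5 of the 13 fitted higher against MPP3 in place of 8. Csrnp1 was lower in MPP2 than in MPP3 (-1.76, SE 0.376, edgeR adjusted p = 0.00767).

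Of 28 further signalling and RNA regulators 27 were tested, and 4 rose in LT-HSC against MPP2, where 4.14% of all genes rose. These were Ier3 (1.32, SE 0.328), Rhob (1.63, SE 0.477), Zfp36 (1.97, SE 0.588) and Ccn1, with edgeR adjusted p-values of 0.0177, 0.0414, 0.0456 and 0.0381. Zfp36 averaged 118.1, 31.0 and 50.8 CPM in LT-HSC, MPP2 and MPP3. Ccn1, a secreted matrix protein, averaged 1.12 CPM in LT-HSC and was at 0 in each MPP2 and each WT MPP3 library. It may thus have passed the filter on low counts through LT-HSC alone, so its call is to be read apart from those of Ier3, Rhob and Zfp36. Against MPP3, 0 of the 27 passed in edgeR, where 3.82% of all genes rose and 2.59% fell. The median log2 difference was 0.15 (-0.04 with the replicate block), against 0.53 for MPP2. Dusp2, a MAP kinase phosphatase like Dusp1, was lower in MPP2 than in MPP3 (-1.72, SE 0.371, edgeR adjusted p = 0.00816), with averages of 22.3 and 73.5 CPM. With the replicate block Ccn1 was no longer called, while Dusp2 rose in LT-HSC against MPP2 (1.46, SE 0.412, edgeR adjusted p = 0.04). Btg2, which restrains proliferation, fell with the block against MPP2 (-1.03, SE 0.285, edgeR adjusted p = 0.0355) and against MPP3 (-1.94, SE 0.304, edgeR adjusted p = 0.000682). Between MPP2 and MPP3 the block called 7 of the list in place of 1, all lower in MPP2, among them Rhob (-1.40, SE 0.280, edgeR adjusted p = 0.00445) and Zfp36 (-1.11, SE 0.275, edgeR adjusted p = 0.0159). Without the block 6.87% of all genes passed in edgeR. The share with the block is not given here, so the gain cannot be read as particular to this list.

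Of the genes upstream, kinases of the MAP kinase cascades and the SRF, CREB and ternary complex factors, 24 were tested, and 4 passed against MPP2 and 1 against MPP3. Over all genes tested, 4.14% rose and 3.68% fell against MPP2, and 3.82% rose and 2.59% fell against MPP3. In LT-HSC against MPP2 Mrtfb (1.10, SE 0.183), Elk3 (0.92, SE 0.268) and Mrtfa (0.65, SE 0.191) rose and Crem fell (-1.27, SE 0.324), with edgeR adjusted p-values of 0.00123, 0.0403, 0.0432 and 0.021. Mrtfa and Mrtfb are coactivators of SRF, Elk3 is a ternary complex factor, and Crem a relative of Creb1. Against MPP3 only Mrtfb of the 24 rose (0.75, SE 0.184, edgeR adjusted p = 0.0175), and with the replicate block Crem also fell (-0.98, SE 0.273, edgeR adjusted p = 0.0356). The median log2 difference of the list was 0.15 and -0.14. Elk3, Rps6ka1, Map2k7 and Mrtfa were lower in MPP2 than in MPP3, by log2 differences of -1.07, -0.74, -0.84 and -0.61 (edgeR adjusted p-values of 0.0104, 0.0163, 0.0209 and 0.0348). In that comparison 6.87% of all genes passed, in either direction.

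Of 10 other partners of AP-1 dimers, Batf2 (2.61, SE 0.424) and Mafg (0.73, SE 0.212) rose in LT-HSC against MPP2 (adjusted p = 0.001 and 0.0392, edgeR), and Batf2 rose against MPP3 (1.94, SE 0.419, edgeR adjusted p = 0.00695). Batf2 averaged 20.7, 3.13 and 5.13 CPM in LT-HSC, MPP2 and MPP3. Over all genes tested, 4.14% rose and 3.68% fell against MPP2, and 3.82% rose and 2.59% fell against MPP3. Jdp2, a repressor that pairs with Jun, was lower in MPP2 than in MPP3 (-1.40, SE 0.309, edgeR adjusted p = 0.00935). Of the 10 heat shock genes, 0 rose and 1, Hspe1, fell in LT-HSC against MPP2 (-0.56, SE 0.150, edgeR adjusted p = 0.0264), and 0 passed against MPP3. With the replicate block Batf rose (0.53, SE 0.139, edgeR adjusted p = 0.0295), as did Hspa1b (1.31, SE 0.373, edgeR adjusted p = 0.0414), both against MPP2. KO minus WT, 0 genes of any of these 5 lists were called in any population by edgeR, whose smallest adjusted p was 0.738; with the replicate block it was 0 as well, with 0.362 as the smallest.

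Markers of other cells were read beside the population differences. The sum of 10 macrophage and monocyte markers was 6.27 to 42.1 CPM in LT-HSC, 17.1 to 85.7 in MPP2 and 34.3 to 84.3 in MPP3, and that of 10 T and NK cell markers was 30.1 to 131.5, 507.3 to 1148 and 172.5 to 508.4 CPM. In LT-HSC, Cd8a and Il2rb among the latter were at 0 in all 5 libraries. The sum of 10 mast cell and basophil markers was 201.7 to 334.4 CPM in LT-HSC, 236.1 to 1452 in MPP2 and 96.5 to 331.2 in MPP3. Most of it in LT-HSC was Gata2 (258.3 CPM on average), a factor that stem cells also express, which rose against MPP3 (1.57, SE 0.311, edgeR adjusted p = 0.00357), while Cma1, Mcpt4, Prss34 and Tpsb2 of that list were at 0 in all 5 LT-HSC libraries. The sum of 10 erythroid markers was 49.6 to 199.5 CPM in LT-HSC, 90.3 to 502.9 in MPP2 and 12.6 to 128.1 in MPP3, with none of the 10 at 0 in any population. Against MPP3, 8 of 9 erythroid markers tested were fitted higher in LT-HSC (median 1.80) and 1, Epor, passed (4.73, SE 1.10, edgeR adjusted p = 0.0135), with Ermap added by the replicate block (edgeR adjusted p = 0.0395). Against MPP2, 0 of the 9 passed and the median was -0.29. The sum of the stromal and endothelial markers was 105 to 179.3 CPM in LT-HSC, 63.8 to 124.9 in MPP2 and 79.9 to 164.6 in MPP3, with none of the 10 at 0. Of these stromal markers, 0 rose and 1 fell in LT-HSC against MPP2, where 4.14% of all genes rose and 3.68% fell. Against MPP3, 3 of these markers rose and 2 fell, where 3.82% of all genes rose and 2.59% fell. The part of such cells in the differences of the members was not tested.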

How the data were processed

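Each of the 21 libraries was made with Nextera XT from 100 to 200 sorted cells, as the labels' protocols state. The authors deposited raw read counts per gene, and the submitters' processing notes name STAR and mm10. The version of STAR, the counting program, its strand setting and the annotation are not given in these sources. IDs were matched to GENCODE M21 symbols (54409 of 54446), and exon lengths come from there.

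Counts were tested with edgeR 4.0.16 in R 4.3.3 (quasi-likelihood, robust, TMM factors, 1 fit of all libraries). filterByExpr with a minimum count of 10 left 21100 genes, over which p-values were adjusted by Benjamini-Hochberg at 0.05 for each of 15 comparisons. DESeq2 1.42.0, limma 3.58.1 with voom and other settings were alternatives, 36 in all with 21 that each left out 1 library. The fits were checked on simulated counts. All 10 members are named; of other lists, genes called or of smallest p. The members and lists were chosen with earlier results of these data known. Leaving out the libraries numbered 1, or rich in immunoglobulin, ribosomal RNA or neutrophil transcripts, was chosen after seeing the data.

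As a check of pairing, deviations of WT and KO libraries of the same number from their group means correlated at 0.327 to 0.381 in MPP2 and 0.134 to 0.26 in MPP3 (4 pairs each), and at 0.0645 and 0.0734 in LT-HSC; pairs of different number reached 0.418 and 0.237 in MPP2 and MPP3. Same-numbered libraries of LT-HSC and a progenitor population of one genotype correlated at only -0.0605 to 0.229, so the pairing across these populations is uncertain. The series' design speaks of 4 pairs of mice, and results with the replicate block are given where they change a call.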

Additional observations from a re-analysis of the deposited data

Results flagged for a closer look

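In groups of 4 libraries, 40 combinations of gene and group were examined for a library far from the others, and 10 had one. A rate of about 1 in 20 by chance would need independent and evenly scattered values. The members share libraries and moved together within groups, so that rate cannot be set against this count. All 10 are libraries numbered 1. Fos measured 122.8 CPM in WT MPP2 1, 80.9 CPM in KO MPP2 1 and 54.9 CPM in WT MPP3 1, where the nearest library of the group had 4.61, 1.90 and 8.86 CPM. Dusp1 measured 87.1 CPM in WT MPP2 1, 62.95 CPM in KO MPP2 1 and 59.2 CPM in KO MPP3 1, with the nearest at 17.9, 16.4 and 24.5 CPM. Egr1 measured 37.85 CPM in WT MPP2 1 and 16.3 CPM in WT MPP3 1, with the nearest at 4.63 and 1.75 CPM. Fosb measured 5.88 CPM in KO MPP2 1, with the nearest at 0.107 CPM. Plk2 measured 0.322 CPM in WT MPP2 1, where the other 3 libraries were at 0, so that any read would have been marked. LT-HSC groups, with 2 and 3 libraries, could not be examined this way.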

How the results depend on the processing

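The 17 calls of single members kept their direction in every alternative in which they were fitted. Of 133 values not called, 78 changed sign in at least 1 alternative, and Fos, MPP2 minus MPP3, was -3.59 and called with title numbers 162 to 212 only, against 0.49 over all libraries. KO minus WT, 0 members were called in every alternative, as for the differences of the KO effect.

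For LT-HSC minus MPP2, 5 members were called; this became 1 with title numbers 52 to 64 only and 2 without the libraries numbered 1, and 4 to 6 without single libraries. For LT-HSC minus MPP3, 6 were called, and 3 with no filter on low counts, 0 with title numbers 52 to 64 only, 3 without the libraries numbered 2, 2 without those numbered 1, and 0 to 6 without single libraries. MPP2 minus MPP3 went from 0 to 2 with title numbers 162 to 212 only, and in WT to 1 with DESeq2. In WT, the 3 of LT-HSC minus MPP2 became 0 with no filter, title numbers 52 to 64 only, or without libraries numbered 1, numbered 2 or rich in neutrophil transcripts, and 1 in a fit of only the groups compared (0 to 4 without single libraries). In WT, LT-HSC minus MPP3 went from 0 to 3 with DESeq2, 4 with limma, 3 with the replicate block (also with KO LT-HSC 3 as number 4), 1 with a mouse block and 2 with only the groups compared. In KO, the 2 of LT-HSC minus MPP2 became 5 with each replicate block and the mouse block, and 0 with title numbers 52 to 64, only the groups compared, or without libraries numbered 1 (0 to 3 without single libraries). In KO, the 1 of LT-HSC minus MPP3 became 3 with DESeq2, 4 with the replicate block, 3 with KO LT-HSC 3 as number 4, 2 with the mouse block, and 0 with limma, title numbers 52 to 64, only the groups compared, or without libraries numbered 1 or rich in immunoglobulin or rRNA (0 to 1 without single libraries). The cause was not tested, and settings with fewer libraries have less information. Shares of all genes are given above for some of these settings only, so changes in count cannot be read as particular to the members. The replicate block changed no other count of members by over 1.5 times.

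KO minus WT, DESeq2 called 28, 35 and 38 genes in LT-HSC, MPP2 and MPP3 where edgeR called 1, 3 and 2. Of 120 levels under other scalings, 0 moved by over 1 SD, and the median correlation without single libraries was 0.57 to 0.65. The SEs of these KO minus WT differences were above 1 for Fos, Fosb, Egr1 and Plk2 in each population, and for Jun in LT-HSC. With such SEs and 2 WT LT-HSC libraries, changes of several fold in these genes would not have been detectable.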
